A study of Mus musculus with 2 samples.

Results

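The IGKV4 family is a large group of kappa light-chain V genes of the mouse, and its use was followed here in B cells of Peyer's patches, which are lymphoid follicles in the wall of the gut. A cell was assigned to the family when the light chain with the most unique molecular identifiers (UMIs, counts of captured transcripts) was a productive IGK chain with an IGKV4 gene, in a barcode with exactly 1 productive heavy chain. This gave 782 cells, 464 of them in the Cre+ library and 318 in the Cre- library, among 5879 kappa cells (3113 and 2766) and 6241 cells with 1 heavy chain. They carried 21 of the 88 IGKV genes found. Both libraries came from female mice with floxed H2-Ab1 alleles, the gene for the beta chain of MHC class II. The Cre+ library (H2-Ab1 fl/fl; Villin:Cre+) came from mice whose Villin promoter drives Cre in the intestinal epithelium, where H2-Ab1 is deleted, and the Cre- library (H2-Ab1 fl/fl; Villin:Cre-) from mice without Cre. The series' design text writes Cre- for both groups, and the genotype was taken from the sample labels. CD45+ cells of 4 adult mice per genotype were pooled into 1 library each, so no replicate exists, no test was made, and the exact 95% Clopper-Pearson intervals given below cover counting error only. Gene expression was not used here, so cells were described by their receptor chains alone.

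A kappa chain is made by joining a V segment to a J segment in the DNA of a developing B cell. A cell can rearrange the same locus again by joining a V segment lying further upstream to a J segment lying further downstream, which replaces the earlier joint, and this is one way in which the specificity of a receptor is edited. The CDR3, the part of the light chain that spans the joint, is numbered here from its first cysteine to its last phenylalanine. B cells start out with IgM and IgD, called unswitched below, and may switch in the follicles to IgA or IgG while somatic hypermutation changes single bases of their V regions.

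Members of the family differ in the first residues of the CDR3, which the V segment encodes. The sequences below are the most common first 21 bases of the CDR3 in 8 genes, shown because they tell the genes apart. Capitals mark the bases that differ from IGKV4-59.

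IGKV4-59: tgccagcagtggagtagtaac
IGKV4-55: tgccagcagtggagtagtTac
IGKV4-53: tgTcaAcagtggagtagtTac
IGKV4-57: tgccagcaAAggagtagtTac
IGKV4-70: tgccaTcagCggagtagtTac
IGKV4-57-1: tgccagcagtACagtGgtTac
IGKV4-91: tgccagcagGgTagtagtaTA
IGKV4-50: tgccagcagtTTaCtagtTCc

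IGKV4-59, IGKV4-68 and IGKV4-72 share the first of these, which reads CQQWSSN, and together held 246 of the 727 cells left after cells with IGHV5-17 and IGHJ4 were set aside. IGKV4-53 and IGKV4-55 both read CQQWSSY, in 54 of 58 and 58 of 62 cells, but differ in codons. IGKV4-57 reads CQQRSSY, IGKV4-70 CHQRSSY, IGKV4-57-1 CQQYSGY, IGKV4-91 CQQGSSI and IGKV4-50 CQQFTSS. A call among IGKV4-59, IGKV4-68 and IGKV4-72 therefore rested on bases outside these 21. All 21 genes were found in the RefSeq table of GRCm38.p6, which lists 28 V segments and 5 V pseudogenes of the family on chromosome 6. The other 7 V segments (Igkv4-51, Igkv4-54, Igkv4-60, Igkv4-73, Igkv4-78, Igkv4-81 and Igkv4-92) were the main light chain of 0 cells. The exact interval of a count of 0 ends at 0.118% of Cre+ and 0.133% of Cre- kappa cells. The 21 genes found span the middle of the locus, from Igkv4-91 at chr6:68768555-68769103, 1953 kb from the Igkj1 segment, to Igkv4-50 at chr6:69700767-69701287, 1021 kb from it. Igkv4-72 lies at chr6:69226854-69227383 and Igkv4-57 at chr6:69575975-69576500, and the J segments run from Igkj1 at 70722562 to the end of Igkj5 at 70723923.

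The family was used by 14.9% of Cre+ kappa cells (interval 13.7 to 16.2) and 11.5% of Cre- kappa cells (10.3 to 12.7), a difference of 3.41 percentage points (1.65 to 5.15). The gap moved with 2 heavy-chain groups. IGHV5-17 joined to IGHJ4, the heavy chain of a large Cre+ lineage, accounted for 50 IGKV4 cells of the Cre+ and 5 of the Cre- library. Without it the shares were 13.6% (414 of 3038, 12.4 to 14.9) and 11.4% (313 of 2749, 10.2 to 12.6). The Cre- library also held 398 kappa cells with IGHV4-1 and IGHJ3, which enlarge its denominator, and 1 of them used IGKV4. With both groups left out the family stood at 13.6% (413 of 3032, 12.4 to 14.9) in Cre+ and 13.3% (312 of 2351, 11.9 to 14.7) in Cre-, a difference of 0.350 points with an interval from -1.52 to 2.20. It was then the third of the families by cells of both libraries, with 725, after IGKV6 with 798 and IGKV1 with 766. The comparisons with other kappa cells below leave both heavy-chain groups out unless stated.

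**Figure D1:**
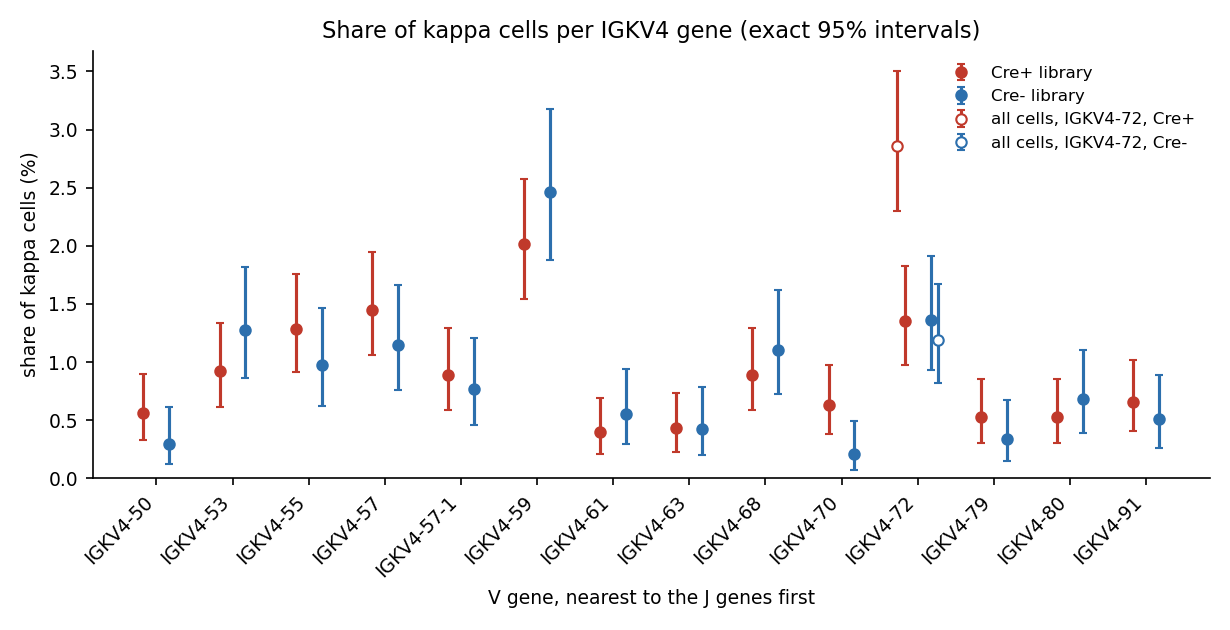
Share of kappa cells, in percent, for each IGKV4 gene with 20 or more cells, ordered by distance from the J genes, with exact 95% intervals. Filled points leave out IGHV5-17 with IGHJ4 and IGHV4-1 with IGHJ3, open points show IGKV4-72 over all kappa cells, at 2.86% in Cre+ and 1.19% in Cre-; the filled intervals of the libraries overlap for all 14 genes.

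IGKV4-72 is the gene of the large Cre+ lineage. It was carried by 89 Cre+ cells (2.86%, 2.30 to 3.51) and 33 Cre- cells (1.19%, 0.823 to 1.67), and 48 of the former belonged to that lineage. With both heavy-chain groups left out it stood at 1.35% (41 cells, 0.972 to 1.83) and 1.36% (32 cells, 0.933 to 1.92), so the libraries no longer stood apart. By the rule of a 1.5-fold ratio of shares with intervals apart, IGKV4-72 was the 1 member of 14 that passed over all kappa cells, where 3.23% of the 62 IGKV genes with 20 or more cells passed. After IGHV5-17 with IGHJ4 was left out 0 of 14 members passed, against 1.61% of genes, and without both groups 0 of 14, against 0% of 61 genes.

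IGKV4-59 was the most used gene once the lineage was set aside, in 61 Cre+ cells (2.01%, 1.54 to 2.58) and 58 Cre- cells (2.47%, 1.88 to 3.18). IGKV4-57 was used by 44 Cre+ cells (1.45%, 1.06 to 1.94) and 27 Cre- cells (1.15%, 0.758 to 1.67). The intervals of the libraries overlapped for both genes. IGKV4-91, of the genes found the furthest from the J genes, was used by 20 Cre+ cells (0.660%, 0.403 to 1.02) and 12 Cre- cells (0.510%, 0.264 to 0.890). IGKV4-70 differed most in relative terms among the 14, with 19 Cre+ cells (0.627%, 0.378 to 0.977) and 5 Cre- cells (0.213%, 0.0691 to 0.496). Its shares' intervals overlapped, and the difference of 0.414 points had an interval whose lower end was 0.0371, so it missed the rule. The other genes of the 14 had between 12 and 39 Cre+ cells and between 7 and 30 Cre- cells. The 7 rarer genes, IGKV4-58, IGKV4-62, IGKV4-69, IGKV4-71, IGKV4-74, IGKV4-86 and IGKV4-90, held 60 of the 727 cells.

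IGKV4 chains joined the downstream J segments more often than other kappa chains did, in both libraries. IGKJ5, the last J segment, was joined in 37.0% of Cre+ IGKV4 cells (153 of 413, 32.4 to 41.9) against 22.6% of other Cre+ kappa cells (591 of 2619, 20.98 to 24.2). For Cre- cells it was joined in 41.3% (129 of 312, 35.8 to 47.0) against 23.1% (470 of 2039, 21.2 to 24.9). IGKJ1, the first J segment, showed the opposite order, at 17.2% (13.7 to 21.2) against 32.6% (30.9 to 34.5) in the Cre+ library. Among Cre- cells IGKJ1 was at 14.4% (10.7 to 18.8) against 30.0% (28.0 to 32.0). The differences for IGKJ5 were 14.5 points (9.53 to 19.6) and 18.3 points (12.5 to 24.3), and those for IGKJ1 -15.5 (-19.4 to -11.1) and -15.5 (-19.8 to -10.7). IGKJ2 was lower in IGKV4 cells, at 23.97% against 31.9% and 26.9% against 34.8%, and IGKJ4 higher, at 21.8% against 12.9% and 17.3% against 12.2%. The intervals of the IGKJ4 shares overlapped in the Cre- library, where that of the difference ran from 0.845 to 10.01 points.

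**Figure D2:**
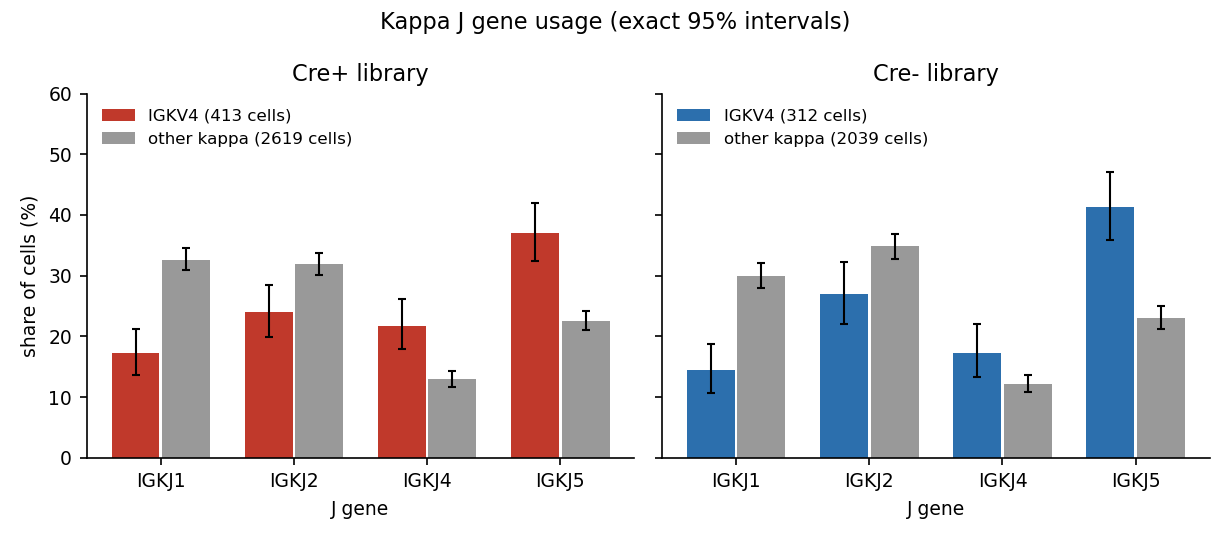
Share of cells, in percent, joined to each kappa J gene, for IGKV4 cells (coloured) and other kappa cells (grey) of each library, without the 2 large heavy-chain groups; bars start at 0 and lines are exact 95% intervals. IGKJ5 is the tallest IGKV4 bar in both libraries, at 37.0% and 41.3%, and IGKJ1 the shortest, at 17.2% and 14.4%.

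Unswitched cells alone gave the same order. IGKJ5 was joined in 37.4% of unswitched Cre+ IGKV4 cells (32.5 to 42.6) against 22.5% of other unswitched kappa cells (20.8 to 24.2). The Cre- values were 42.0% (36.1 to 48.1) against 22.9%, again with intervals apart. Switched IGKV4 cells numbered 37 and 34, and their intervals for IGKJ5 overlapped those of other switched cells in both libraries. With the IGHV5-17 and IGHJ4 cells kept in, IGKJ5 stood at 43.5% of Cre+ IGKV4 cells, and all 48 lineage cells with IGKV4-72 used it. Over all kappa cells of the Cre- library IGKJ1 made up 40.9% of the others, with the IGHV4-1 and IGHJ3 cells counted among them.

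The J usage was uneven within the family. Of the 14 genes with 20 or more cells, 11 joined IGKJ4 or IGKJ5 more often than the 35.4% of other kappa cells (34.0 to 36.8), taking both libraries together, and 8 had an interval wholly above that of the other kappa cells. The count was 11 of 14 in each library alone. Genes of other families were not counted this way. IGKV4-91 was highest, with 25 of its 32 cells on IGKJ4 or IGKJ5 (78.1%, 60.03 to 90.7). It had 0 on IGKJ1, with an interval that ends at 10.9%. IGKV4-68 followed at 75.5% (61.7 to 86.2), with 32 of 53 cells on IGKJ5 and 1 on IGKJ1, then IGKV4-55 at 72.6% (59.8 to 83.1) and IGKV4-57 at 69.0% (56.9 to 79.5). These neighbours in the order did not differ beyond their intervals.

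IGKV4-80, IGKV4-70 and IGKV4-50 were the 3 genes below the other kappa cells, at 21.9% (9.28 to 39.97) for IGKV4-80 and 25% (9.77 to 46.7) for each of the others. IGKV4-70 and IGKV4-80 were joined to IGKJ1 in 11 of 24 and 14 of 32 cells. IGKV4-50, of the genes found the nearest to the J genes, was joined to IGKJ2 in 13 of 24 cells. IGKV4-72 lay between these groups, with 16, 22, 10 and 25 of its 73 cells on IGKJ1, IGKJ2, IGKJ4 and IGKJ5. The order of genes along the chromosome was thus not the order of their J usage: IGKV4-68 at 75.5% lies next to IGKV4-70 at 25% among the 14.

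**Figure D3:**
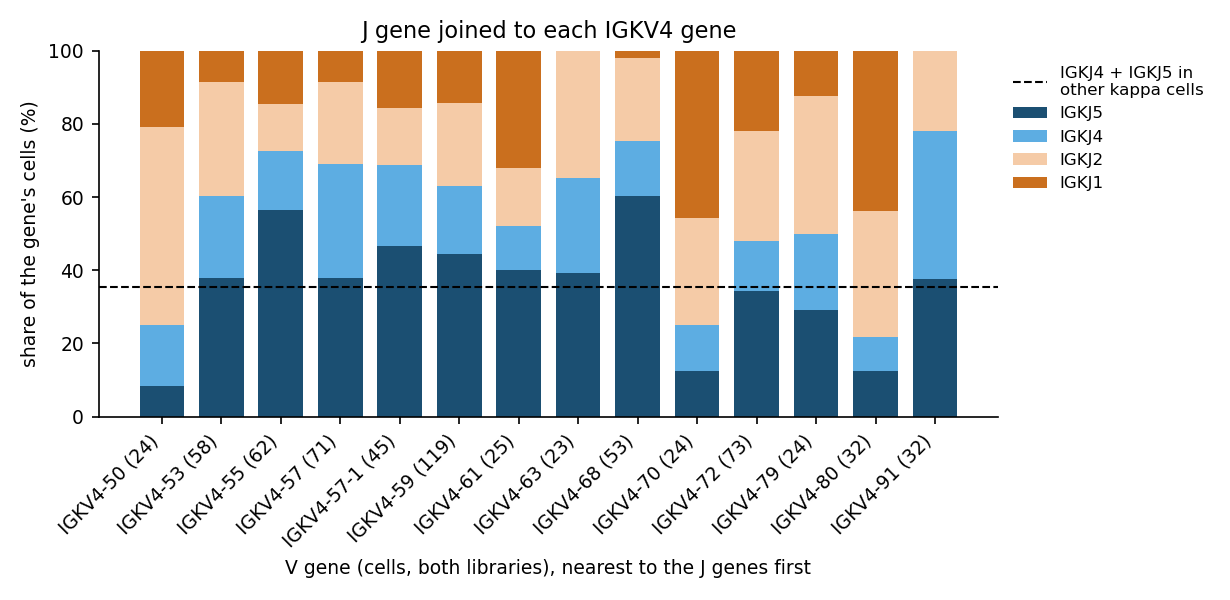
J genes joined to each of the 14 IGKV4 genes, as a percentage of the gene's cells in both libraries (number of cells in brackets), without the 2 large heavy-chain groups; the dashed line marks the summed IGKJ4 and IGKJ5 share of other kappa cells, 35.4%. The blue part of the bar, IGKJ4 and IGKJ5, ends above the line in 11 genes and below it in IGKV4-50, IGKV4-70 and IGKV4-80.

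By total variation distance of the J shares over both libraries, the families most like IGKV4 among 15 others with 50 or more cells were IGKV5 (0.0712), IGKV8 (0.125) and IGKV17 (0.158). IGKV5 joined IGKJ5 in 41.2% and 45.9% of its Cre+ and Cre- cells. IGKV17 almost lacked IGKJ1, at 1.57% and 2.15%. IGKV4 ranked the fourth of 16 families by IGKJ5 share in each library, so high IGKJ5 use was not particular to it.

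The 5 light-chain CDR3s with the most cells over both libraries were each found in both. Without IGHV5-17 and IGHJ4, the family had 111 distinct CDR3s in 414 Cre+ cells and 101 in 313 Cre- cells. The 5 most common amino acid sequences covered 144 of 414 Cre+ cells (34.8%) and 126 of 313 Cre- cells (40.3%). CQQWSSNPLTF was read in 41 Cre+ cells (9.90%, 7.201 to 13.2) and 40 Cre- cells (12.8%, 9.29 to 16.99), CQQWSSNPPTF in 33 and 32, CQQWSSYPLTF in 34 and 28, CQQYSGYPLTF in 20 and 14, and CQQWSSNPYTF in 16 and 12. None of the 5 was found in a kappa cell of another family. With the IGHV5-17 and IGHJ4 cells, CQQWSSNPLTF was read in 89 Cre+ cells (19.2%) and 42 Cre- cells (13.2%).

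The 3 of these CDR3s with the CQQWSSN start had 2 nucleotide forms each, which are shown because V genes and libraries share them. Capitals mark codons 8 and 9, where V meets J. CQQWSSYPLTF had 8 forms and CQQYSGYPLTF 4.

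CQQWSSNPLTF, form 1: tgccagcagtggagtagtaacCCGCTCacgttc
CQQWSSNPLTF, form 2: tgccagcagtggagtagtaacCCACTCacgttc
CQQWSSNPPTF, form 1: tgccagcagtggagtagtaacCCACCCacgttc
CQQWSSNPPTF, form 2: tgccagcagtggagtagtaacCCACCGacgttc
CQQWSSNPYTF, form 1: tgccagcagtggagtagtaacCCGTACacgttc
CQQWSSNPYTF, form 2: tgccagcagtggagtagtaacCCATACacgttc

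Both forms of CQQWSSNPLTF were assigned to IGKJ5, form 1 in 29 Cre+ and 25 Cre- cells and form 2 in 12 and 15. The first form of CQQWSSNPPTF was found in 28 cells of each library and was assigned to IGKJ2, IGKJ4 or IGKJ5, so its J gene was read from bases after the CDR3. Form 2 was found in 9 cells, all assigned to IGKJ1. The forms of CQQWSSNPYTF were found in 18 and 10 cells, all with IGKJ2. Each form but the second of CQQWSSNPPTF appeared in 3 or 4 V genes that include IGKV4-59, IGKV4-68 and IGKV4-72, and that one in IGKV4-50, IGKV4-59 and IGKV4-72.

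Among single genes, IGKV4-57 carried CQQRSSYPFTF in 18, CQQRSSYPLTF in 17 and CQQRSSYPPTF in 11 of its 71 cells. IGKV4-91 carried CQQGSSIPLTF in 11 and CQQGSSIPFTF in 9 of 32, and IGKV4-72 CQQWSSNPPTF in 20 and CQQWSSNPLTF in 18 of 73. IGKV4-57-1 carried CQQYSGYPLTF in 33 of 46 cells. Counted as V gene and CDR3 nucleotides, the family had 169 distinct chains in Cre+ and 144 in Cre-, and 72 were found in both, 42.6% and 50% of each. Of the distinct chains of other kappa cells 311 were found in both, 46.8% and 54.0% of each. Of IGKV4 cells, 68.0% in Cre+ and 73.4% in Cre- carried a shared chain, against 82.1% and 84.8% of other kappa cells. The sets were not matched in size, with 413 and 312 IGKV4 cells against 2619 and 2039 others. Of 7 barcodes that occurred among kappa cells of both libraries, 1 held an IGKV4 chain in either, and 0 held the same light chain.

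IGKV4 CDR3s were longer than those of other kappa chains more often, and more of them held adjacent prolines. A length of 11 residues was found in 88.1% of Cre+ and 88.8% of Cre- IGKV4 cells. Of IGKV4 cells, 7.99% in the Cre+ (33 of 413, 5.56 to 11.04) and 6.41% in the Cre- library (20 of 312, 3.96 to 9.73) had 12 or more residues. Other kappa cells stood at 2.29% (1.75 to 2.94) and 2.06% (1.49 to 2.77). A pair of prolines was found in 18.4% (14.8 to 22.5) and 18.9% (14.7 to 23.7) of IGKV4 cells, against 5.46% (4.62 to 6.40) and 5.93% (4.95 to 7.05) of the others. Over all cells, and in unswitched cells alone, the intervals were apart for both features in each library. Switched cells were few: a pair of prolines was found in 1 of 37 Cre+ IGKV4 cells (2.70%, 0.0684 to 14.2) against 6.20% of other switched cells (3.59 to 9.88), the opposite order. The Cre- switched cells gave 6 of 34 (17.6%, 6.76 to 34.5) against 4.43% (2.05 to 8.25), and the intervals overlapped in both libraries. The interval of the difference excluded 0 in Cre-, at 13.2 points (1.68 to 30.3), but not in Cre+, at -3.50 points (-8.02 to 8.25).

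The paired prolines were also compared within each J segment. Within IGKJ2 joints they were found in 24.2% of IGKV4 (16.2 to 33.9) and 1.92% of other Cre+ cells (1.10 to 3.09), and in 25% (16.2 to 35.6) and 3.38% (2.18 to 4.99) of Cre- cells. Within IGKJ4 joints they were found in 17.8% against 2.07% and 20.4% against 1.21%. Within IGKJ1 joints the intervals overlapped, at 16.9% (9.05 to 27.7) against 10.5% (8.55 to 12.8) and 17.8% (8.002 to 32.1) against 9.66% (7.43 to 12.3). Within IGKJ5 joints they were apart in the Cre+ library, at 15.7% against 5.08%, and overlapped for Cre-, at 14.7% against 7.45%. For lengths of 12 or more, IGKV4 was higher within each J segment in both libraries, but intervals overlapped within IGKJ5 and, in the Cre- library, within IGKJ1 and IGKJ2.

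IGKV4 cells paired with a broad set of heavy chains, 79 IGHV genes in Cre+ and 65 in Cre-. The 5 partners with the most cells were IGHV1-26, IGHV3-6, IGHV1-72, IGHV1-64 and IGHV1-69. IGHV1-26 was the partner of 8.72% of Cre+ IGKV4 cells (36 cells, 6.18 to 11.9) and 7.05% of Cre- ones (22 cells, 4.47 to 10.5), against 6.57% and 6.08% of other kappa cells. IGHV3-6 was the partner of 4.60% (2.79 to 7.09) and 6.41% (3.96 to 9.73), against 3.13% (2.498 to 3.87) and 3.73% (2.95 to 4.64). IGHV1-72 was at 4.60% and 4.49% against 3.21% and 2.94%, IGHV1-64 at 3.87% and 3.53% against 3.89% and 3.87%, and IGHV1-69 at 2.18% and 4.49% against 2.21% and 2.16%. The intervals overlapped for each of these 5 in both libraries.

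Past the 1.5-fold rule were 1 of 51 IGHV genes in the Cre+ (1.96%) and 1 of 45 in the Cre- library (2.22%), both less frequent with IGKV4. They were IGHV1-82 in the Cre+ library, with 5 of 413 IGKV4 cells (1.21%, 0.394 to 2.80) against 3.55% of the others, and IGHV1-52 in the Cre- library, with 1 of 312 (0.321%, 0.00811 to 1.77) against 2.501%. Neither passed in the other library. With all kappa cells counted, IGHV5-17 was the partner of 12.3% of Cre+ IGKV4 cells (57 of 464, 9.44 to 15.6) and 2.20% of Cre- ones. Without its joints to IGHJ4 it stood at 7 of 414 (1.69%) and 2 of 313 (0.639%). The median length of the heavy CDR3 was 14 residues in IGKV4 and in other kappa cells of both libraries.

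Among single genes, IGKV4-59 was paired most with IGHV9-3, in 10 of 120 cells, IGKV4-68 with IGHV1-26, in 8 of 53, and IGKV4-57 with IGHV1-9, in 5 of 71. IGKV4-91 was paired with 27 heavy V genes in 32 cells. Few receptors recurred: outside IGHV5-17 with IGHJ4, 5 combinations of heavy V, heavy J, heavy CDR3 and IGKV4 gene were found in 2 or more cells. The largest, of 4 Cre+ cells, joined IGHV1-72 and IGHJ4 (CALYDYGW) to IGKV4-57, with 3 IgA cells and 1 IgM cell. The next, of 3 Cre- cells, all IgA, joined IGHV1-19 and IGHJ1 to IGKV4-72.

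The IgA share of IGKV4 cells moved with the lineage in the Cre+ library. Over all cells with a constant gene called, IgA was carried by 14.7% of Cre+ IGKV4 cells (68 of 462, 11.6 to 18.3) against 5.05% of other kappa cells (4.24 to 5.96). Of Cre- IGKV4 cells it was carried by 5.70% (18 of 316, 3.41 to 8.85) against 20.7% (19.1 to 22.3). The order was thus opposite in the libraries, and each difference rested on 1 of the large heavy-chain groups. With both left out, IgA stood at 5.11% (3.19 to 7.70) against 4.87% (4.08 to 5.77) in Cre+ and at 5.48% (3.23 to 8.64) against 5.46% (4.51 to 6.54) in Cre-. The differences were 0.236 points (-1.88 to 2.95) and 0.0213 points (-2.48 to 3.31).

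IgM was found in 58.2% and 54.8% of IGKV4 cells, IgD in 32.8% and 34.2%, and IgG2b in 3.41% (14 cells) and 5.16% (16 cells), with intervals that overlapped those of other kappa cells. In the Cre- library the interval of the difference excluded 0 for IgM, at -7.42 points (-13.5 to -1.39), and for IgD, at 6.44 points (0.802 to 12.3). IgG1 was found in 2 Cre+ IGKV4 cells, a difference of -1.47 points (-2.21 to -0.116) from the others, and in 1 Cre- cell. Of the single genes, IGKV4-57 held the most switched cells, 12 of 71 (9 IgA and 3 IgG2b), and IGKV4-50 and IGKV4-63 held 0 of 24 and 0 of 23. IGKV4-91 held 4 switched cells of 32, and IGKV4-72, without IGHV5-17 and IGHJ4, 7 of 73.

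Mismatches in the first bases of the CDR3 were rare in unswitched and frequent in switched IGKV4 cells. In very short CDR3s these bases include the joint with J. The Cre+ IGKV4-80 chains CSTF (IgA) and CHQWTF (IgM) were such cases and counted as mismatched. Each cell's first 18 CDR3 bases were set against the most common such sequence of its V gene in unswitched cells, which was possible for 699 cells of 16 genes with 10 or more unswitched cells. Of the 361 unswitched Cre+ IGKV4 cells, 5 had a mismatch (1.39%, 0.451 to 3.20), as did 5 of the 268 Cre- ones (1.87%, 0.608 to 4.30). Among switched cells it was found in 15 of 35 Cre+ (42.9%, 26.3 to 60.6) and 20 of 31 Cre- cells (64.5%, 45.4 to 80.8). The gap between unswitched and switched cells exceeded the intervals in both libraries. The reference was taken from the unswitched cells themselves, so their rate is not independent of it.

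Other kappa cells showed the same order, at 1.35% (0.921 to 1.91) and 54.2% (47.8 to 60.5) in the Cre+ library and 0.886% (0.507 to 1.43) and 41.4% (34.5 to 48.6) in the Cre- library. The intervals of switched IGKV4 and other switched cells overlapped in both libraries, as did those of the 2 libraries for switched IGKV4 cells. IgA cells of the family carried a mismatch in 9 of 19 Cre+ (47.4%, 24.4 to 71.1) and 12 of 16 Cre- cells (75%, 47.6 to 92.7), against 56.5% (47.3 to 65.3) and 43.6% (34.2 to 53.4) of other IgA cells. With 15 bases compared, the Cre- intervals for IgA were narrowly apart, at 62.5% (35.4 to 84.8) against 25.5% (17.6 to 34.6). They were also narrowly apart with each receptor counted once, at 66.7% (34.9 to 90.1) against 24.2% (16.2 to 33.9). With 21 bases they overlapped, at 81.25% (54.4 to 95.95) against 56.4% (46.6 to 65.8). The mismatched Cre- cells include the IgA cells with IGHV1-19 described below, which may be related and are not independent counts. IgG2b cells carried one in 4 of 14 and 7 of 14. By gene it was found in 8 of 12 switched IGKV4-57 cells, 5 of 7 IGKV4-72 cells and 4 of 4 IGKV4-70 cells, but in 0 of 7 IGKV4-59 cells. Of the 12 named genes with a switched cell, 11 held at least 1 with a mismatch. This count was not made for genes of other families.

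**Figure D4:**
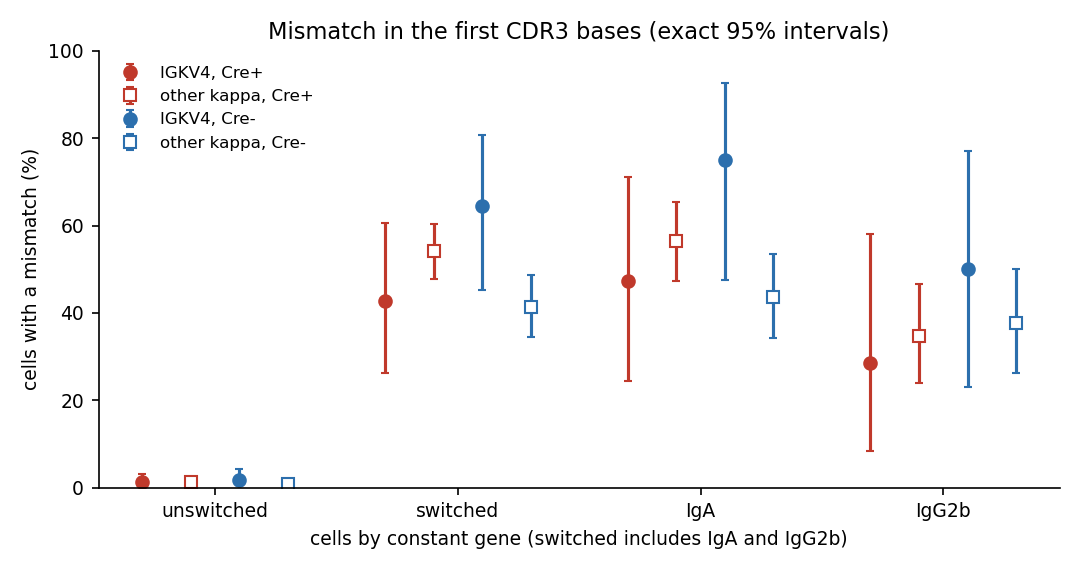
Share of cells, in percent, whose first 18 CDR3 bases differ from the most common sequence of their V gene in unswitched cells, for IGKV4 (filled) and other kappa cells (open) of each library, with exact 95% intervals. Unswitched cells lie below 2% in all 4 sets, and switched IGKV4 cells at 42.9% and 64.5%.

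The differing chains are shown beside the most common form. The following are the most common 18 bases of IGKV4-57 and whole CDR3s of 5 chains that differ from it, then those of IGKV4-72; capitals mark bases among the first 18 that differ.

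IGKV4-57, most common: tgccagcaaaggagtagt
IGKV4-57, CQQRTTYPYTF: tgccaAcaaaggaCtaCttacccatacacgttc
IGKV4-57, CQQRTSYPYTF: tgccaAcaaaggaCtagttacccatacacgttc
IGKV4-57, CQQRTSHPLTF, cell 1: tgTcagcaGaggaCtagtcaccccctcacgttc
IGKV4-57, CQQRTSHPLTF, cell 2: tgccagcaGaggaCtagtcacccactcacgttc
IGKV4-57, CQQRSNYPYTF: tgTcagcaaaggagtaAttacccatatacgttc
IGKV4-72, most common: tgccagcagtggagtagt
IGKV4-72, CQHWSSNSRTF: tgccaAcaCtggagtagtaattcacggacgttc
IGKV4-72, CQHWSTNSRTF: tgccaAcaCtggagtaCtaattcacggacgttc

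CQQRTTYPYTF and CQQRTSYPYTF were the chains of the 4 cells with the heavy CDR3 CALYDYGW, 2 cells each, and share 2 of the changed bases. The chains reading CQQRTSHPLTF came from 2 IgA cells of the Cre+ library with IGHV1-12 and the heavy CDR3s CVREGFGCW and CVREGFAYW. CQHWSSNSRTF was the chain of the 3 IgA cells with IGHV1-19 and IGHJ1 named above, and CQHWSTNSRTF that of 1 further IgA cell with IGHV1-19, all in the Cre- library. Cells that share these heavy chains may be related and are not independent counts. Some of the 10 unswitched mismatches matched the start of another member. An IGKV4-50 cell read CQQWSSN and an IGKV4-53 cell read CQQYSGY, the starts of IGKV4-59 and IGKV4-57-1.

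The light chain of the large IGHV5-17 and IGHJ4 lineage carried no mismatch in the first 18 CDR3 bases. The rest of its V region was not examined. Of the 60 Cre+ kappa cells with its heavy CDR3 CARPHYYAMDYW, 48 had IGKV4-72 as the main light chain, all with IGKJ5 and form 1 of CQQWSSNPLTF, and 47 of these were IgA and 1 IgG1. The other 12 had main light chains of 9 other IGKV genes. They had a median of 2 heavy-chain UMIs, against 9 in the 48, and 5 were IgA and 4 IgM. The same nucleotides were common elsewhere: 29 further Cre+ cells with 28 different heavy chains and 27 Cre- cells with 27 carried them on IGKV4-59, IGKV4-68 or IGKV4-72. All but 1 of these cells in each library were unswitched. On IGKV4-72 itself they were found in 9 Cre+ cells with 1 to 32 light-chain UMIs, 2 of them under 3, and in 5 Cre- cells with 12 to 28.

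IGKV4 cells held fewer light-chain UMIs than other kappa cells, while the medians of heavy-chain UMIs were equal. The median was 17 light-chain UMIs in Cre+ IGKV4 cells (interquartile range 11 to 24) against 33 in other Cre+ kappa cells (21 to 48). In the Cre- library it was 18 (12 to 25) against 36 (24 to 51). The median of heavy-chain UMIs was 8 in both sets of the Cre+ library (5 to 14 in IGKV4 and 5 to 13 in other cells) and 9 in both sets of the Cre- library (5 to 13 and 6 to 14), and cells were not matched on it. The medians of all 14 named genes lay below those of other kappa cells in both libraries, from 10.5 (IGKV4-61) to 23 (IGKV4-57-1) in Cre+ and from 12.5 (IGKV4-53) to 26 (IGKV4-50, 7 cells) in Cre-. Genes of other families were not counted this way. Medians of other families lay on both sides of 33 (Cre+) and 36 (Cre-), with IGKV2 at 24 and 29 and IGKV12 at 45 and 46.5. Within each J segment the median of IGKV4 lay between 15.5 and 20, and that of other kappa cells between 32 and 39.

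Unswitched cells alone gave medians of 16 against 32 and 18 against 35. Of 16 IGKV families with 50 or more cells in all, IGKV4 was the lowest in the Cre+ library and next to the lowest, after IGKV13 at 15, in the Cre- library. Fewer transcripts per cell and a lower yield of these transcripts in the assay cannot be told apart here. Chains with under 3 UMIs made up 0.726% and 2.56% of IGKV4 cells and 0.496% and 0.392% of the others. The 50 Cre+ IGKV4 cells with IGHV5-17 and IGHJ4, 48 of them of the large lineage, lay lower still. They had medians of 6.5 light-chain (4 to 8) and 8.5 heavy-chain UMIs. Most were IgA, and the 21 other Cre+ IGKV4 cells with IgA had medians of 39 (23 to 66) and 23. The 18 Cre- IGKV4 cells with IgA had medians of 19 (10.5 to 32.75) and 9.

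**Figure D5:**
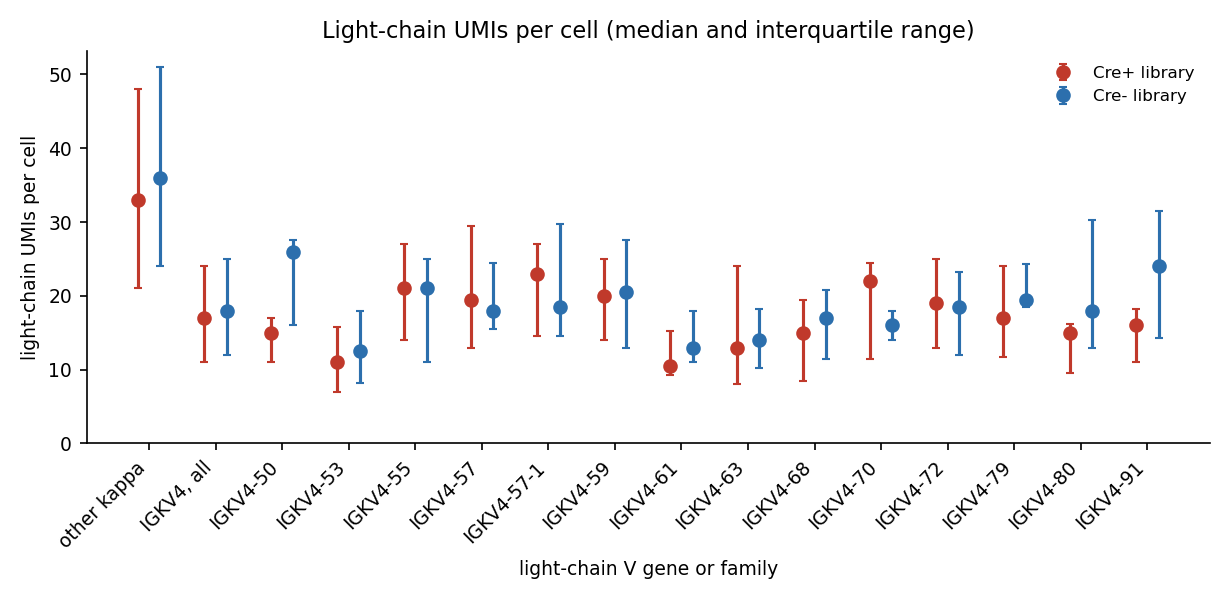
Light-chain UMIs per cell, as median (point) and interquartile range (line), for other kappa cells, all IGKV4 cells and each IGKV4 gene with 20 or more cells, by library, without the 2 large heavy-chain groups. The medians of all 14 genes lie below those of other kappa cells, 33 in Cre+ and 36 in Cre-.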

How the data were processed

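Receptor transcripts of CD45-enriched cells were sequenced with a 10x Genomics kit for 5' V(D)J libraries, per the labels' protocols, in 2 libraries that each pooled 4 mice. Contigs were made with Cell Ranger on GRCm38, per the submitters' processing notes, and the Cell Ranger version was not given in these sources. The deposited contig tables give counts of reads and UMIs per assembled contig, not normalized by the authors. All contigs carried the called-cell and high-confidence flags. The Cre+ library held 12300 contigs and 355258 UMIs in 3748 barcodes, the Cre- library 10108 contigs and 355985 UMIs in 3245.

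Barcodes with other than 1 productive heavy chain were left out, 286 Cre+ and 185 Cre- ones without a heavy chain and 145 and 83 with several, the latter as possible doublets. No doublet caller was run. The main light chain had the most UMIs, with ties, in 4 and 2 cells and none of them IGKV4, going to more reads. Shares have exact Clopper-Pearson intervals at the 95% level, and differences an interval combined from both. A count of 0 is given the upper end of its exact interval. Cells of 1 lineage are not independent, so true uncertainty is wider. Genes with 20 or more cells, the 5 most common CDR3s and heavy partners, and the 3 families nearest in J usage were named by rule. The members and lists were chosen with earlier results of these data known. Python 3.11.15, pandas 2.3.3 and scipy 1.17.1 were used, and the steps were tested on simulated contigs.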

Additional observations from a re-analysis of the deposited data

Results flagged for a closer look

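The light chain of the large IGHV5-17 and IGHJ4 lineage (IGKV4-72 with form 1 of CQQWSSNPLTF) was also found as the weaker of several light chains, data that the comparisons above do not use. It was the weaker chain in 14 of 295 Cre+ cells with 2 or more light chains (4.75%, 2.62 to 7.83). In the Cre- library it was so in 0 of 220, with an exact interval that ends at 1.66%. It had 1 to 3 UMIs in these 14 cells, beside main chains of 4 to 49 UMIs that were lambda in 9 of them. All 14 had different heavy chains, none of them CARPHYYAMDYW, and 12 were IgM. Of the 73 Cre+ cells with a weaker IGKV4 chain, no other chain was found in more than 3.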

How the results depend on the processing

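In the Cre- library the family's share of 11.5% became 13.3% with each receptor counted once, 13.2% in unswitched cells only and 13.4% without IGHV4-1 and IGHJ3. Without IGHV5-17 and IGHJ4 its 11.4% became 13.2%, 13.1% and 13.3% under these settings. In Cre+ IGKV4 cells, leaving out IGHV5-17 and IGHJ4 or counting each receptor once moved the IGKJ5 share from 43.5% to 37.0% and 37.3%, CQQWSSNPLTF from 19.2% to 9.90% and 9.93%, and IgA from 14.7% to 5.10% and 4.87%. Each of these settings removes or collapses cells of the 2 large heavy-chain groups. The other 54 values, which include a minimum of 3 UMIs, exactly 1 light chain and all barcodes with a productive IGK, stayed within the interval of the value reported. Of 168 values for single genes, 2 left it, both for IGKV4-72 in the Cre+ library. Comparing 15 or 21 CDR3 bases or each receptor once, kept switched IGKV4 cells within the interval too. These settings, the split into switched and unswitched cells, and the omission of both heavy-chain groups from the J, CDR3 and isotype comparisons were chosen after the data were seen. No paired analysis was possible because each genotype has 1 library. With 31 to 37 switched IGKV4 cells per library, only large differences within them were detectable at this depth.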
